A study of Mus musculus with 9 samples.

Results

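Mitochondrial fusion and fission genes were followed in the brown fat (brown adipose tissue, BAT) of mouse embryos, a tissue that burns fuel to make heat. The 8 genes were Mfn1, Mfn2, Opa1, Dnm1l, Fis1, Mff, Oma1 and Yme1l1. They were taken by symbol from the deposited expression table, where all 8 had an entry under that symbol, among 30915 entries in all. The tissue came from wild-type C57Bl6J mouse embryos that had received no treatment, and was taken at 3 stages named by embryonic day: E14.5, then E15.5, then E16.5. There were 9 MoGene-2_0-st arrays, 3 for a stage, and the RNA on an array came from its own preparation, in which the BAT of 3 embryos had been pooled. Values are log2 expression values, so a difference of 1 is a 2-fold change, and levels are compared between stages for 1 gene, not between genes.

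Mitochondria form a network that fuses and divides. Fusion of the outer membrane is carried out by the mitofusins Mfn1 and Mfn2, which are GTPases anchored in that membrane, and fusion of the inner membrane by the dynamin-like GTPase Opa1, which also holds cristae in shape. Division is carried out by the dynamin-related GTPase Drp1, encoded by Dnm1l, which assembles on the outer membrane at receptors such as Mff; Fis1 is an outer-membrane adaptor linked to division. The inner-membrane proteases Oma1 and Yme1l1 cut Opa1 from its long into its short forms, Oma1 mainly under stress and Yme1l1 constitutively. In adult brown fat, activated by cold or noradrenaline, mitochondria are known to fragment, Mfn2 is known to tether mitochondria to lipid droplets, and Oma1 is known to be needed for normal thermogenesis in mice.

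Over the 2 days of development the 3 fusion genes and Oma1 rose most among the 8. The genes of division among the 8, Dnm1l, Mff and Fis1, moved less, while some division genes outside the 8 rose at least as much as Mfn2 (given below). From E14.5 to E16.5 the level of Mfn2 rose 2.60-fold, Opa1 2.54-fold, Oma1 2.46-fold and Mfn1 1.91-fold, and these 4 rose on each of the days. Mff rose 1.51-fold and Dnm1l 1.22-fold over both days. Fis1 (1.04-fold) and Yme1l1 (1.12-fold) did not pass the test. In all, 6 of the 8 rose and 0 fell over both days (limma, adjusted p under 0.05 over all entries), where 22.0% of all entries rose and 17.4% fell. The count of falling members was also 0 at an unadjusted p under 0.05.

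On the first day, E15.5 against E14.5, 4 of the 8 rose and 0 fell, against 9.07% of all entries that rose and 11.2% that fell. On the second day, E16.5 against E15.5, 5 rose and 0 fell, against 11.2% and 8.46%. The genes called on both days were Mfn1, Mfn2, Opa1 and Oma1, 4 of 8, where 5.65% of all entries rose on both days. The moderated F-test for any change over the 3 stages called 6 of 8, where it called 35.1% of all entries. The median log2 change of the 8 was 0.31 on the first day, 0.44 on the second and 0.76 over both, beside 0.03, 0.10 and 0.14 for all entries. No member fell at an unadjusted p under 0.05 on either day (0 and 0). All arrays of the later stage lay above all of the earlier one for 7 members on the first day, 6 on the second and 7 over both, as did 23.1%, 20.3% and 30.9% of all entries. They lay below for 0 members in each comparison, against 19.7%, 12.2% and 19.3%.

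**Figure D1:**
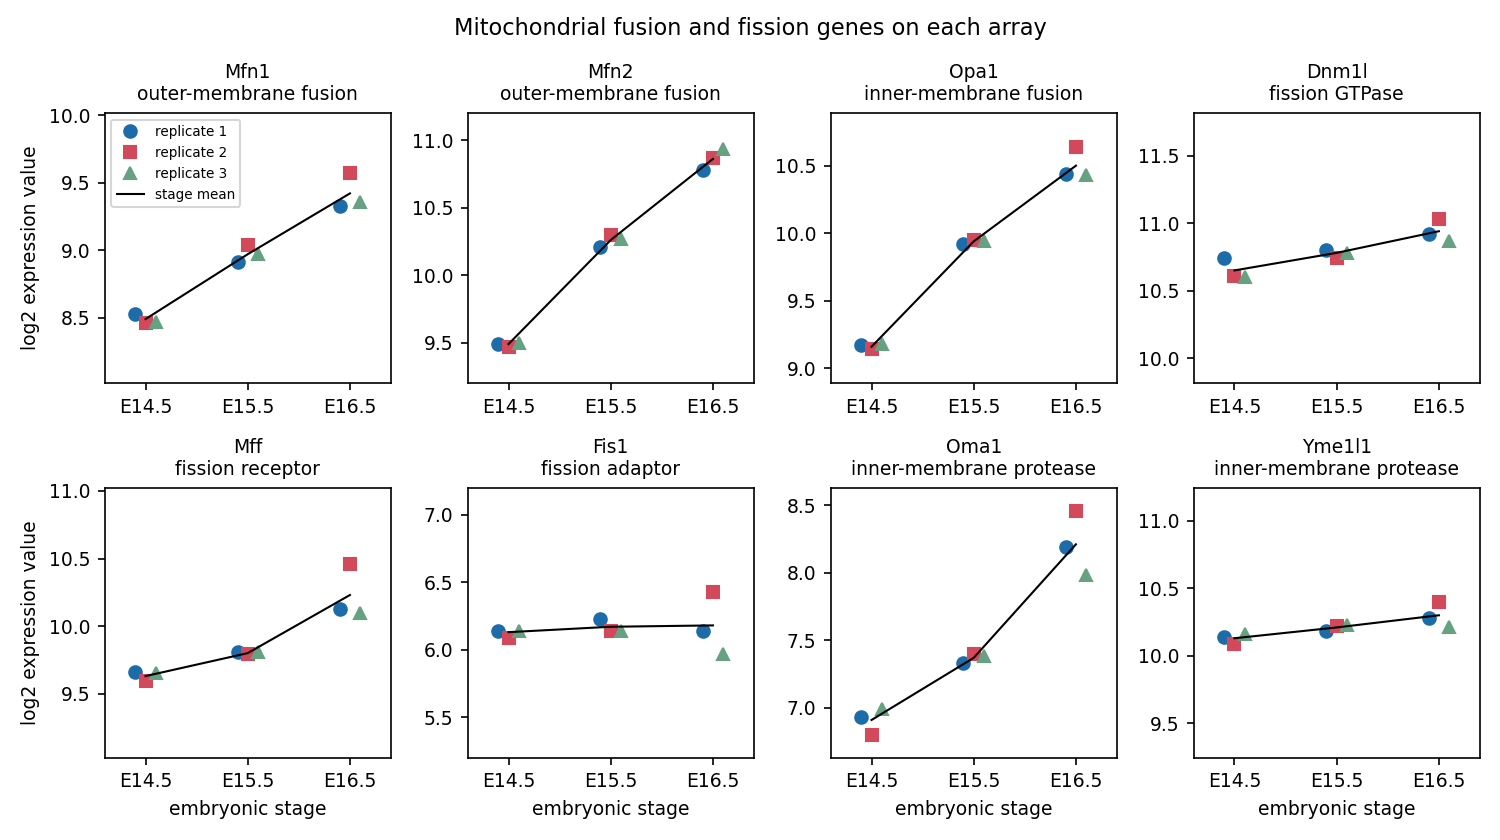
Log2 expression value of each of the 8 genes on each array, by embryonic stage. Points are single arrays, marked by replicate number, the line joins the stage means, and each panel spans 2 log2 units. Mfn1, Mfn2, Opa1 and Oma1 climb at each step, Mff mostly at the second, and Fis1 stays flat, with E16.5 replicate 2 above its stage mean in all 8 panels.

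1 array stood apart. E16.5 replicate 2 had a median log2 value of 5.05 over all entries, against 4.79 to 4.85 on the other 8 arrays, and its values of the 8 genes lay 0.01 to 0.25 above their E16.5 means. Arrays of E14.5, and those of E15.5, had a correlation across entries of 0.9975 or more (Pearson's r), and those of E16.5 one of 0.992 to 0.997. The deposited scale moved the median entry by 0.14 from E14.5 to E16.5, against 0.007 after quantile normalization, and the move was 0 among entries at or above the median brightness. The means of all 8 genes lay in that brighter part, the lowest being Fis1, above 62.7% of all entries. The 0.14 of all entries is thus larger than the shift of entries as bright as the 8. Less that 0.14, the log2 changes over both days were 1.24 for Mfn2, 1.20 for Opa1, 1.16 for Oma1, 0.79 for Mfn1, 0.46 for Mff, 0.15 for Dnm1l, 0.03 for Yme1l1 and -0.08 for Fis1. Without E16.5 replicate 2 the counts of members that rose were 5 on the first day, 5 on the second and 6 over both, with 0 falling in each. In that fit 4413 of the 30915 entries rose on the first day, 3581 on the second and 6335 over both. With all arrays these counts were 2803, 3461 and 6795. The entries that fell numbered 4640, 4196 and 6720 in that fit, against 3472, 2615 and 5376 with all arrays. Markers of the labelled tissue were read as well, which does not test the label at each stage. All 12 brown adipocyte markers rose over both days, and 11 after quantile normalization. Ucp1, the uncoupling protein of heat production, had a mean log2 value of 4.46 at E14.5, 5.52 at E15.5 and 9.22 at E16.5.

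Markers of several cell types moved over the same days. The mean log2 value of the 12 brown adipocyte markers was 6.71 to 6.84 on the E14.5 arrays, 8.88 to 8.94 at E15.5 and 10.09 to 10.30 at E16.5. For 12 skeletal muscle markers it was 9.76 to 9.81, 8.53 to 8.73 and 8.05 to 8.50, and 11 of the 12 fell over both days. The count was 10 without E16.5 replicate 2 and 10 after quantile normalization. For 10 markers of mesenchyme and preadipocytes its stage means were 10.97, 10.31 and 9.86, and all 10 fell. Of the other marker lists, over both days, leukocytes had 0 higher and 5 lower of 6, dividing cells 0 and 3 of 4, neurons and Schwann cells 0 and 2 of 6, erythroid cells 2 and 3 of 7, cartilage 2 and 2 of 5, mural cells 3 and 2 of 5, endothelium 1 and 1 of 6, liver 1 and 0 of 4, and epidermis 1 and 0 of 3. Without E16.5 replicate 2, epidermis had 0 higher and 1 lower, endothelium 1 and 2 (1 and 3 after quantile normalization), neurons and Schwann cells 0 and 3, and cartilage 1 and 2. Dividing cells had 0 higher and 4 lower without that array, and also after quantile normalization. Liver had 0 higher after quantile normalization. The liver marker that rose, Ttr, had stage means of 3.87, 4.07 and 4.16. The 95th percentile of olfactory and vomeronasal receptor entries, a proxy for background, was 4.26 to 4.81 on the arrays. The means of Alb, Afp, Krt5 and Krt14 also lay below that range at every stage, and those of Apoa1 and Krt10 did not. Of all entries 22.0% rose and 17.4% fell over both days, and the marker lists were not tested against those shares. In bulk tissue more cells of a type and more RNA per cell cannot be told apart, and the part of these shifts in the changes of the 8 genes was not tested.

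The promoters shown are those of the 4 genes that passed the test as rising on both days. They are the 250 bases before the most upstream start listed for each gene in RefSeq's table for GRCm38.p6, read 5′ to 3′ along the gene's strand. Entries for all 8 genes were found there. Capitals mark matches to either of 2 motifs of factors that drive nuclear genes for mitochondrial proteins, NRF1 (GCGCA and GCGC with any 1 base between them) and GABP (CCGGAAG), each searched on both strands.

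Mfn1, chr3:32529232-32529481, plus strand: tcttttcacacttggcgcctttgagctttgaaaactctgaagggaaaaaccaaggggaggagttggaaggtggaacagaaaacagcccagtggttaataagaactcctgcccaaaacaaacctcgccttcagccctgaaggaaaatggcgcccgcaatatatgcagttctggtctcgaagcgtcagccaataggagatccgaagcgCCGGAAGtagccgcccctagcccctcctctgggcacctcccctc

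Mfn2, chr4:147904910-147905159, minus strand: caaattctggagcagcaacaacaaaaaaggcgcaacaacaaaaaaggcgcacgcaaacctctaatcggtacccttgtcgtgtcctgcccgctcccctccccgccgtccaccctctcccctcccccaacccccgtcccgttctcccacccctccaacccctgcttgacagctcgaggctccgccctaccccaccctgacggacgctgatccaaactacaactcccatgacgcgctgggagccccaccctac

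Opa1, chr16:29579084-29579333, plus strand: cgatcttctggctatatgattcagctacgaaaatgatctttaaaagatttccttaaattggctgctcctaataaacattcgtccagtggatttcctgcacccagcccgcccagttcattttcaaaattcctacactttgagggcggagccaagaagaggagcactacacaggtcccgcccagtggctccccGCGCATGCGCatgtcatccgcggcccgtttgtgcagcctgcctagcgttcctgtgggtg

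Oma1, chr4:103313596-103313845, plus strand: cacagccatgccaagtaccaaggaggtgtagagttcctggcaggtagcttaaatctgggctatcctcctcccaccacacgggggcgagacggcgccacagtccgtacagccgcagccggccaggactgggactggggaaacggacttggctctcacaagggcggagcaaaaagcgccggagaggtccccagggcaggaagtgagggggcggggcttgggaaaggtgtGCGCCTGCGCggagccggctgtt

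The NRF1 letters stood 59 to 50 bases before the start of Opa1, as a palindrome that reads the same on both strands, and 23 to 14 bases before that of Oma1. They occurred in 3.87% of 27025 promoters of the same length. The GABP letters stood 44 to 38 bases before the start of Mfn1, and 7.07% of all promoters held them. They also stood in the windows of Fis1 and Yme1l1, the members whose changes did not pass the test. The Mfn2 window held neither. Mfn2 had 3 such windows listed, and Dnm1l, Fis1 and Mff 2 each, of which only the most upstream was searched. The letters TNAAGGTCA of the oestrogen-related receptors (1.13% of all promoters) and AAGATGGCG of YY1 (0.59%) were in 0 of the 8 windows. The motifs did not overlap each other in these windows. The share of G and C in the 8 windows was 46.0% (Mff) to 66.8% (Fis1), with a median of 52.0% over all promoters.

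Mfn2, the mitofusin also found at contacts with the endoplasmic reticulum and lipid droplets, rose on both days. Its values were 9.49, 9.47 and 9.50 on E14.5 replicates 1 to 3, 10.21, 10.30 and 10.27 at E15.5, and 10.78, 10.87 and 10.93 at E16.5. Every E15.5 array was above every E14.5 array and every E16.5 array above both. The log2 change was 0.78 ± 0.08 on the first day (SE, n = 3 arrays per stage, limma adjusted p = 2.59e-05) and 0.60 ± 0.08 on the second (limma adjusted p = 0.000255), and 1.38 ± 0.08 over both. The replicate spread at a stage was at most 0.07 (SD).

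Opa1 followed a course close to that of Mfn2. It read 9.17, 9.14 and 9.18 at E14.5, then 9.92, 9.95 and 9.94 at E15.5, then 10.44, 10.64 and 10.43 at E16.5. The stages did not overlap, and E16.5 replicate 2 was the highest of its stage. Opa1 rose by 0.78 ± 0.08 on the first day (limma adjusted p = 4.13e-05) and by 0.57 ± 0.08 on the second (limma adjusted p = 0.000534). The entry gives 1 value for the gene, so the splice forms of Opa1, and the long and short forms of the protein, were not resolved.

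Mfn1, the mitofusin with the stronger GTPase and tethering activity in biochemical work, rose as well. Its values were 8.53, 8.46 and 8.47 at E14.5, 8.91, 9.04 and 8.97 at E15.5, and 9.33, 9.57 and 9.36 at E16.5. Here too each stage lay wholly above the one before. The log2 change was 0.48 ± 0.09 on the first day (limma adjusted p = 0.00213), 0.45 ± 0.09 on the second (limma adjusted p = 0.00404) and 0.93 ± 0.09 over both (limma adjusted p = 7e-06).

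The mitofusins were set against each other on the same array. The log2 value of Mfn2 less that of Mfn1 was 1.0 ± 0.04 (SD, n = 3) at E14.5, 1.29 ± 0.03 at E15.5 and 1.44 ± 0.13 at E16.5, where only the change of this difference between stages can be read. All E16.5 differences were above all E14.5 differences, a shift of 0.44 towards Mfn2 (exact permutation test, two-sided, p = 0.1, 0.109 after Benjamini-Hochberg adjustment over 12 such comparisons). On the second day the shift was 0.15 and the stages overlapped (exact permutation p = 0.3). For Opa1 less Mfn1 the shift over both days was 0.41, with no overlap (exact permutation p = 0.1). With 3 arrays against 3 this test cannot give a p below 0.1.

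Dnm1l, the fission GTPase, moved by smaller steps. Its values were 10.74, 10.61 and 10.60 at E14.5, 10.80, 10.74 and 10.78 at E15.5, and 10.92, 11.03 and 10.87 at E16.5. The stages did not overlap, but E14.5 replicate 1 and E15.5 replicate 2 were equal to the second decimal. Neither day passed the test, with log2 changes of 0.13 ± 0.08 (limma adjusted p = 0.38) and 0.16 ± 0.08 (limma adjusted p = 0.197). Over both days Dnm1l rose by 0.29 ± 0.08, with a 95% interval of 0.11 to 0.47 (limma adjusted p = 0.0144). That value was 0.18 after quantile normalization, and the call ended without E14.5 replicate 2 (0.27) or replicate 3 (0.27) and when only the 6 arrays compared were fitted (0.29).

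Mff, the main receptor that brings Drp1 to the outer membrane, rose on the second day. It read 9.66, 9.59 and 9.65 at E14.5, 9.81, 9.79 and 9.81 at E15.5, and 10.13, 10.46 and 10.10 at E16.5. E16.5 replicate 2 was well above the other arrays of its stage, and the stages did not overlap. The first-day change was 0.17 ± 0.10 (limma adjusted p = 0.342) and the second-day change 0.43 ± 0.10 (limma adjusted p = 0.0109). Without E16.5 replicate 2 the second-day value was 0.31 (limma adjusted p = 0.00223), and the first-day value of 0.17 passed the test (limma adjusted p = 0.0264).

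Fis1 gave no change that could be told from its spread. Its values were 6.14, 6.09 and 6.14 at E14.5, 6.23, 6.14 and 6.14 at E15.5, and 6.14, 6.43 and 5.97 at E16.5. The stages overlapped in every comparison, and E16.5 held both the highest and the lowest value. The log2 change over both days was 0.05 ± 0.11, with a 95% interval of -0.19 to 0.30 (limma adjusted p = 0.693). The sign of that value depended on the scale, at 0.12 after quantile normalization and -0.01 after median centring. On 5 of the 9 arrays the deposited value was the same number, 6.14, to all its digits, as 18.4% of entries shared 1 value on 3 or more arrays. The mean of Fis1 stood above 62.7% of all entries, and 1455 of 1459 olfactory and vomeronasal receptor entries, used as a proxy for background, had a lower mean.

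**Figure D2:**
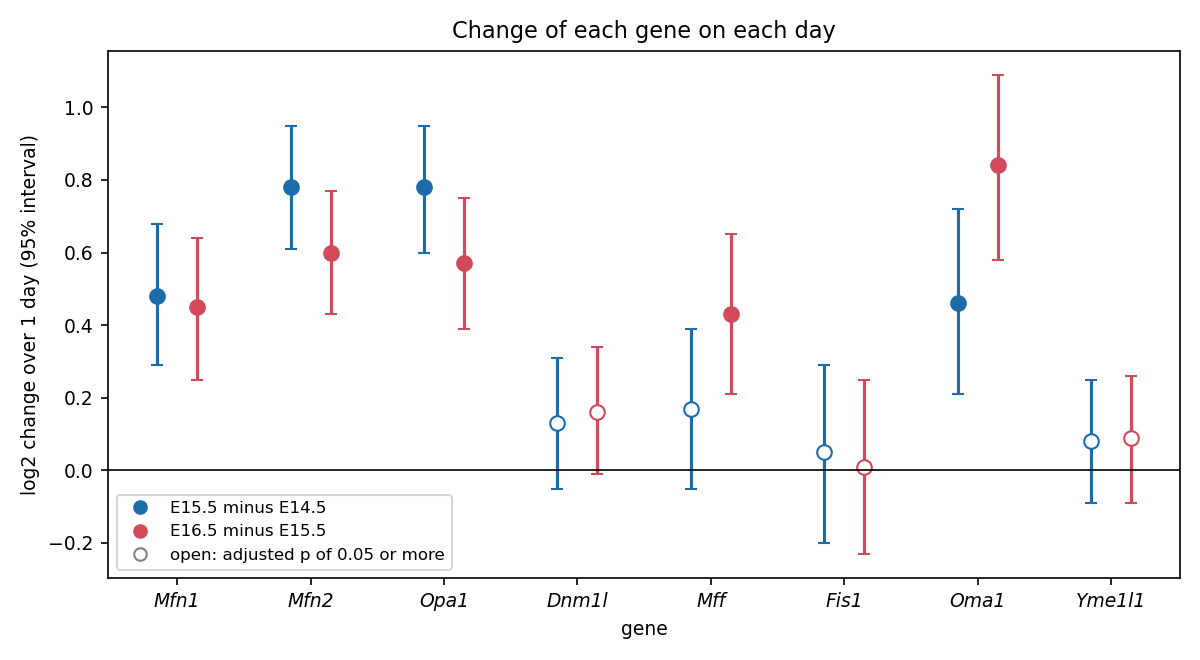
Log2 change of each gene on the first day (E15.5 minus E14.5) and the second day (E16.5 minus E15.5), with 95% intervals from the limma fit to 9 arrays. Filled points passed the adjusted p threshold of 0.05 over all 30915 entries: Mfn1, Mfn2, Opa1 and Oma1 on both days and Mff on the second, at 0.43.

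The fusion genes were set beside the fission genes on each array, as a description with no test of the group means. The mean log2 value of Mfn1, Mfn2 and Opa1 less that of Dnm1l, Fis1 and Mff was 0.22, 0.26 and 0.25 on the E14.5 arrays, 0.73, 0.87 and 0.82 at E15.5, and 1.12, 1.06 and 1.26 at E16.5. Each stage lay wholly above the one before, also on E16.5 replicate 2, where both means were the highest of their stage. The fission mean includes Fis1, which held 1 value on 5 of the 9 arrays. For 1 fusion GTPase and the fission GTPase, Mfn2 less Dnm1l on the same array, the shift over both days was 1.09, with no overlap between stages (exact permutation p = 0.1, the smallest that 3 arrays against 3 allow, and 0.109 adjusted over 12 comparisons, which does not pass). Mfn2 had the largest rise of the 3 fusion GTPases. Mfn1 rose less, by 0.93 over both days, and neither it nor Opa1 was set against Dnm1l in this way.

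Of the inner-membrane proteases that cut Opa1, Oma1 rose on both days and Yme1l1 did not pass the test on either. Oma1 read 6.93, 6.80 and 6.99 at E14.5, 7.33, 7.40 and 7.38 at E15.5, and 8.19, 8.46 and 7.98 at E16.5. The stages did not overlap, and the spread at E16.5 was the widest (SD 0.24). Oma1 rose by 0.46 ± 0.12 on the first day (limma adjusted p = 0.0146) and by 0.84 ± 0.12 on the second (limma adjusted p = 0.00043). The first-day call ended when replicate 2 of E14.5 was left out (0.41), and likewise for replicate 2 (0.45) and replicate 3 (0.46) of E15.5.

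Yme1l1, the ATP-dependent protease, moved little. Its values were 10.14, 10.09 and 10.16 at E14.5, 10.18, 10.22 and 10.23 at E15.5, and 10.28, 10.40 and 10.21 at E16.5. The E15.5 and E16.5 arrays overlapped. The change over both days was 0.17 ± 0.08, with a 95% interval of -0.01 to 0.34 (limma adjusted p = 0.112). On the same array, Oma1 less Yme1l1 shifted by 0.38 on the first day and 0.75 on the second, and by 1.13 over both, without overlap between stages in any of these (exact permutation p = 0.1 for each, 0.109 adjusted over 12 comparisons, so the difference between the proteases did not pass a test that cannot go lower).

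**Figure D3:**
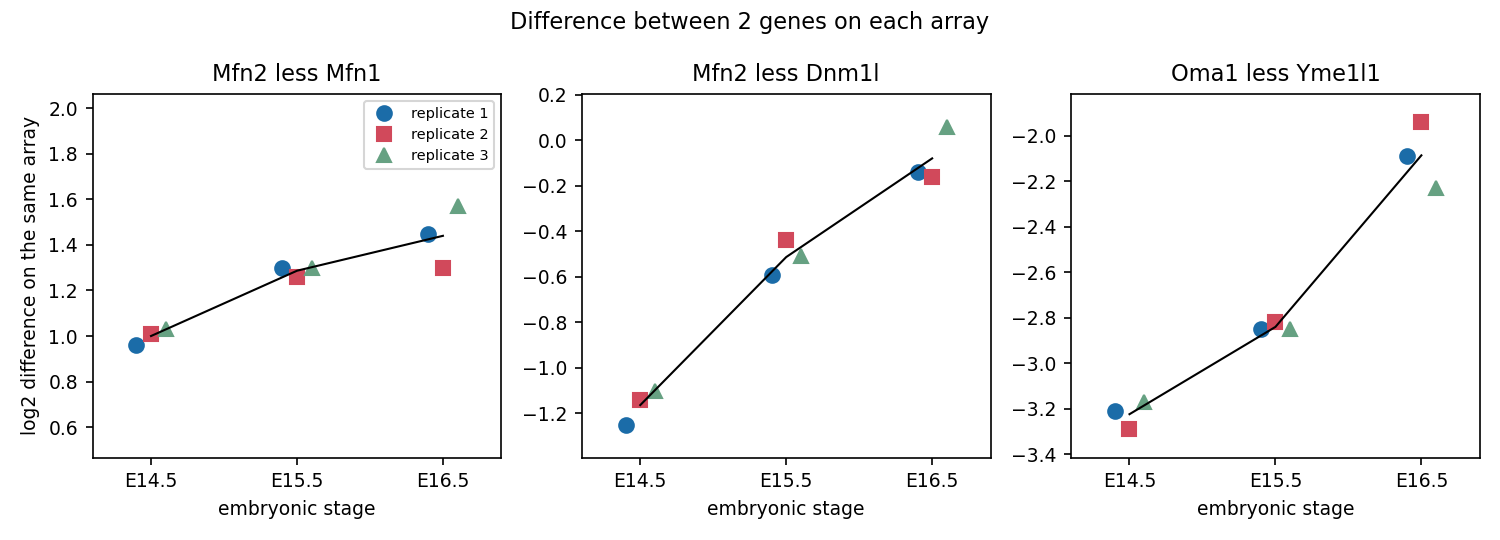
Log2 value of 1 gene less that of another on the same array, by stage, for Mfn2 less Mfn1, Mfn2 less Dnm1l and Oma1 less Yme1l1. Points are arrays and the line joins stage means. Over both days the differences shifted by 0.44, 1.09 and 1.13, and the vertical position of a panel depends on the probes and carries no meaning.

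The second-day change was tested against the first-day change for each gene. It was larger in Oma1 by 0.38 ± 0.20 and in Mff by 0.26 ± 0.17, and smaller in Opa1 by 0.21 and in Mfn2 by 0.18. None of the 8 differences passed (0 of 8 with limma at adjusted p under 0.05, and 0 at unadjusted p under 0.05), where 2.79% of all entries had a larger and 2.41% a smaller second-day change. The lowest unadjusted p was that of Oma1, 0.0875 (adjusted p = 0.44), with a 95% interval of -0.07 to 0.82.

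The 8 genes tracked each other to different degrees over the 9 arrays, which share their stages. Pearson's r was 0.994 for Mfn2 with Opa1, 0.992 for Mfn1 with Opa1, 0.984 for Mfn1 with Mfn2 and 0.979 for Mff with Oma1. Fis1 had r of 0.179 to 0.665 with the other 7. Of 12969 other named entries at or above the median brightness, those most like Mfn2 over the 9 arrays were Oplah (r = 0.9988), Fam73b (0.9987) and Atp2a3 (0.9987). Fam73b is the older symbol of Miga2, a mitoguardin that binds mitofusins and promotes fusion. Those most like Opa1 were Trmt2b (0.9993), Gstz1 (0.9993) and Ltbp2 (0.9991), and those most like Mfn1 were As3mt (0.9983), Sepsecs (0.998) and Dalrd3 (0.998). For Oma1 they were C8g (0.997), Prdm9 (0.9969) and Smdt1 (0.9968), for Mff Cog2 (0.9972), Adck2 (0.9953) and Clec1a (0.9948), and for Dnm1l Bre (0.9921), Chid1 (0.9915) and Dtwd2 (0.9865). These r are descriptions of arrays that differ by stage.

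Other genes that act on the mitofusins mostly rose. Of 9 measured, 5 rose and 1 fell on the first day, 7 rose and 1 fell on the second, and 7 rose and 1 fell over both days, when their median log2 change was 1.02. Of all entries, 9.07% rose and 11.2% fell on the first day, 11.2% and 8.46% on the second, and 22.0% and 17.4% over both. The same shares stand beside the lists that follow. Pld6, a mitochondrial outer-membrane phospholipase-family protein that aids fusion, rose by 2.62 ± 0.13 over both days, Fam73b by 1.88 ± 0.07, and Mul1, a ubiquitin ligase of the outer membrane that can mark Mfn2 for degradation, by 1.46 ± 0.11. The gene that fell over both days was Huwe1, a ubiquitin ligase (-0.48 ± 0.08), and the one that fell on the second day was Fam73a, the older symbol of Miga1 (-0.52); both were chosen after their values were seen. Without E16.5 replicate 2, 2 of the 9 fell over both days, and the first-day fall was lost (0 of 9) without any 1 of the E14.5 or E15.5 arrays.

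Other genes linked to division were mixed. Of 14 measured, 7 rose and 0 fell on the first day, 4 rose and 1 fell on the second, and 8 rose and 0 fell over both. The median over both days was 0.41, against 0.14 for all entries. On the second day it was 0.10, the same as for all entries, of which 11.2% rose and 8.46% fell that day. Mtfp1, an inner-membrane protein that promotes division, rose by 2.06 ± 0.13 on the first day and had 0.27 ± 0.13 on the second (limma adjusted p = 0.18). Its rise over both days was 2.33 ± 0.13, above that of Mfn2 (1.38). Mief2, a receptor for Drp1, rose by 0.66 ± 0.10 and 0.73 ± 0.10 on the first and second day, and by 1.40 ± 0.10 over both. Akap1, which rose by 1.44 ± 0.08 and 0.36 ± 0.08, anchors protein kinase A to the outer membrane and is known to hold Drp1 in its inhibited form, so it does not do what the list's name says. The gene that fell on the second day, chosen after its value was seen, was Mtfr2 (-0.64). Without E16.5 replicate 2, 2 of the 14 fell over both days and 2 on the second, where 0 fell without E15.5 replicate 1. The second-day count of rises was 6 without E16.5 replicate 1.

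Mitochondrial proteases and the inner-membrane scaffold rose nearly throughout over both days. The list, named for the inner membrane, also holds Clpp, Lonp1, Pmpca and Pmpcb of the matrix and Htra2 of the intermembrane space. Of 15 measured, 13 rose on the first day, 10 on the second and 14 over both, with 0 falling in each and a median of 0.91 over both days. Under the alternatives run, 11 to 14 rose on the first day, 7 to 11 on the second and 14 over both. After quantile normalization 1 fell on the second day. Immp2l, a subunit of the inner-membrane peptidase, rose by 1.97 ± 0.09 over both days, Ghitm, an inner-membrane protein tied to cristae, by 1.73 ± 0.07, and Afg3l2, a subunit of the matrix-facing AAA protease, by 1.39 ± 0.08. The cristae junction list, the MICOS complex and its outer-membrane partners, rose in 11 of 11 over both days (median 1.12), among them Immt, its core subunit mitofilin, at 1.35 ± 0.08, Apool at 1.74 ± 0.09 and 2410015M20Rik, the older symbol of Micos13, at 1.92 ± 0.08. The count was 10 of 11 on the second day and 7 after quantile normalization.

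Genes of mitochondrial transport were divided. Of 8 measured, 4 rose and 1 fell over both days, and 2 fell without E16.5 replicate 2. The median was 0.17, close to the 0.14 of all entries, of which 22.0% rose and 17.4% fell. The one that fell, chosen after its value was seen, was Kif5b, a kinesin motor (-0.34). The Miro GTPases Rhot2 and Rhot1, which link mitochondria to motors, rose by 1.35 ± 0.08 and 0.84 ± 0.08, and the adaptor Trak1 by 0.56 ± 0.10. Among 6 dynamin-like GTPases that act on other membranes, 2 rose and 2 fell over both days (median -0.10), and 1 fell when any array other than E16.5 replicate 2 was left out. Dnm1, the dynamin of synaptic vesicle recycling, fell (log2 change -2.08 ± 0.08). So did the atlastin Atl1, chosen after its value was seen (-0.34 ± 0.12, limma adjusted p = 0.0482). The other atlastins, Atl2 and Atl3, rose by 0.50 ± 0.08 and 0.54 ± 0.10.

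Genes that mark mitochondrial content gave a yardstick for the 8. Of 23 measured, 18 rose on the first day, 10 on the second and 21 over both, with 0 falling and medians of 0.59, 0.21 and 0.74. Under the alternatives run, 16 to 23 rose on the first day, 8 to 14 on the second and 19 to 23 over both. Their mean log2 value was 10.48 to 10.51 on the E14.5 arrays, 11.08 to 11.10 at E15.5 and 11.37 on each E16.5 array. Mfn2, Opa1 and Oma1, with 1.38, 1.34 and 1.30 over both days, lay above that list's median, as did Mfn1 with 0.93, and Mff, Dnm1l, Yme1l1 and Fis1 lay below it. Where the 8 stood against that median was not tested. The range within the list was 0.02 to 2.26, and it included the respiratory chain subunits Cox5a (2.26), Ndufs1 (1.80) and Cox4i1 (1.58).

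Regulators of mitochondrial gene expression moved both ways. Of 9 measured, 5 rose and 1 fell on the first day, 3 rose and 2 fell on the second, and 5 rose and 2 fell over both. The count that fell over both days was 1 without E14.5 replicate 1 and 3 without E16.5 replicate 2. On the second day it was 3 without E16.5 replicate 2 and 1 without any other array except E16.5 replicate 3, and 2 rose without E15.5 replicate 1. Those that fell, chosen after their values were seen, were Pprc1, a coactivator of the same family as Ppargc1a (-1.21), and Gabpb1, a subunit of GABP (-0.30). Gabpa, the DNA-binding subunit of GABP and also chosen after its value was seen, rose by 0.87 ± 0.10 over both days (limma adjusted p = 2.28e-05). The coactivators Ppargc1a and Ppargc1b rose by 3.21 ± 0.09 and 2.53 ± 0.11 over both days and the orphan receptor Esrra by 2.21 ± 0.09. In mouse muscle these coactivators, acting with Esrra, are known to raise Mfn2. Ppargc1a and Ppargc1b rose less on the second day than on the first (difference -1.65 ± 0.16 and -1.59 ± 0.19, limma adjusted p = 0.000269 and 0.00111). The same difference for Mfn2 was -0.18 ± 0.13 (limma adjusted p = 0.641). Their differences were not tested against that of Mfn2, and any link between these genes in this tissue was not tested.

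**Figure D4:**
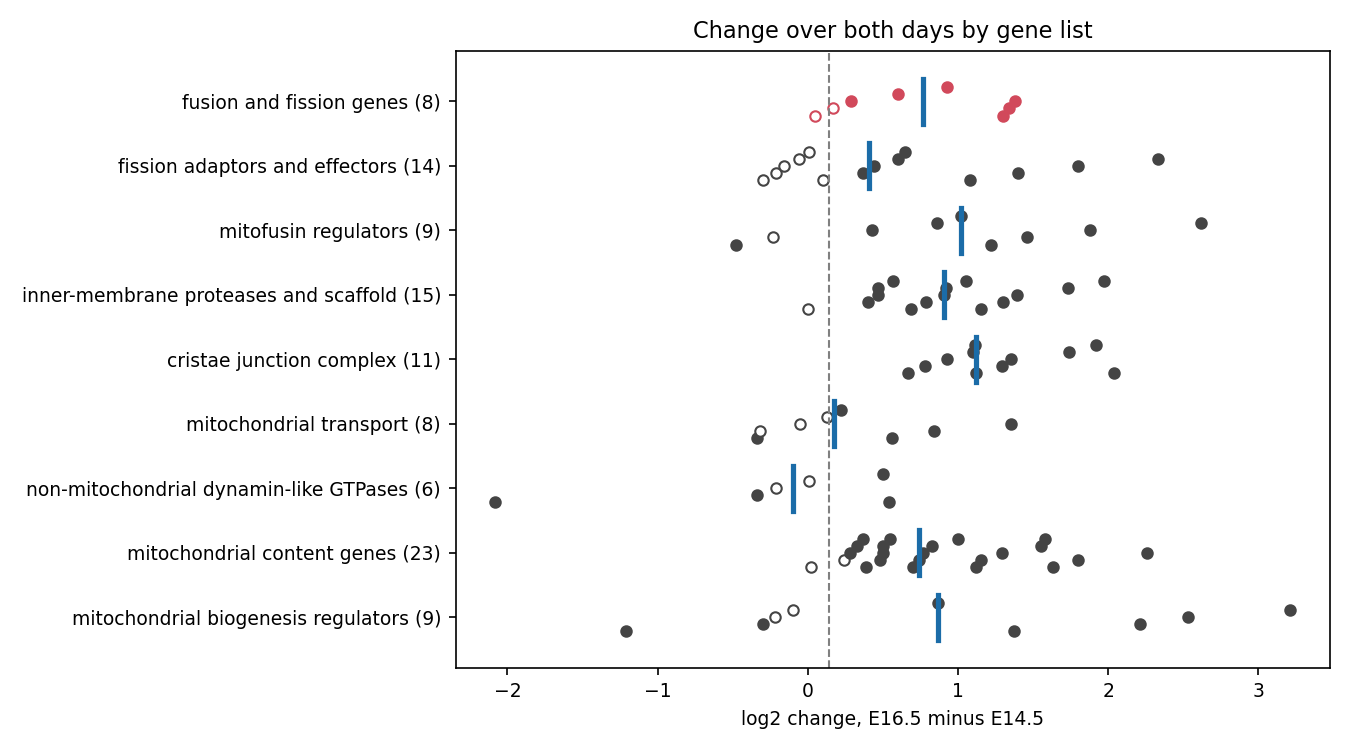
Log2 change from E14.5 to E16.5 of each gene, by list, with the number of measured genes in parentheses. Points are genes, filled where the limma adjusted p was under 0.05, blue bars are list medians and the dashed line is the median of all entries, 0.14. Medians were 0.76 for the fusion and fission genes, 1.12 for the cristae junction complex and -0.10 for dynamin-like GTPases of other membranes.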

How the data were processed

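The deposited table holds log2 values for 30915 entries on each of 9 arrays. The authors used Partek 7.0 and RMA to make them, by the submitters' processing notes. RMA corrects background, normalizes between arrays and summarises probes. The sources used here name no annotation or build. Background in dim entries draws their changes towards 0, and the number of arrays limits precision.

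All 9 arrays were fitted with limma 3.58.1 (R 4.3.3), stage being the sole term, and two-sided p-values were adjusted over all entries (Benjamini-Hochberg, threshold 0.05). The fit was tested on simulated data. Gene differences on an array were compared by exact permutation. The 8 members and all gene lists were chosen with earlier results of these data known. Genes named with values were the members, the 3 of each pathway list with the smallest F-test p, and the 3 entries most correlated with each member that the F-test called. Genes marked as chosen after their values were seen lie outside this rule, as do the cell type markers named. In the 8 pathway lists 7 genes were matched under an older symbol, Phb1 by hand, and Dnm2 was in 2 lists. Alternatives were quantile normalization, median centring, a brightness filter, a trended robust prior, array weights, a replicate block, fits to 6 arrays and leaving out each array.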

Additional observations from a re-analysis of the deposited data

How the results depend on the processing

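Of the recomputed changes of single members, 494 stayed on their side of the threshold, 6 lost and 4 gained a call, and 0 called changes turned direction. Those lost were the first-day rise of Oma1 (3 left-out arrays) and the rise of Dnm1l over both days, given above with their values. Those gained were the first-day rise of Mff with array weights, without E16.5 replicate 2 and in the 6-array fit (0.17 in each), and the rise of Yme1l1 over both days with a trended robust prior (0.17, limma adjusted p = 0.041). Counts of members that rose stayed within 1.5 times under every alternative run.

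The count of all entries changed on the first day was 6275, and 10026 with array weights. The count whose second-day change differed from the first-day change was 1610, and 2626 with quantile normalization, 2502 with the brightness filter, 3825 with array weights and 606 to 3361 when 1 array was left out, 3361 without E16.5 replicate 2, 988 and 1041 without E14.5 replicates 2 and 3, and 721, 606 and 669 without E15.5 replicates 1, 2 and 3. No member was among those called in any of these. The share of calls over both days that were rises was 55.8% as deposited and 47.7% after quantile normalization, and on the second day 57.0%, 47.7% and, after median centring, 46.2%. With the replicate block the counts were 6074 on the first day, 5817 on the second and 12152 over both, with 4, 5 and 6 members rising. Same-numbered arrays had correlations of deviations of -0.134 to 0.10 over 9 pairs, with 1 of 9 arrays correlating best with its own number.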
